A study of Mus musculus with 3 samples.

Results

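The transcript levels of 10 BCL2 family genes were measured by RNA-seq in wounded murine primary fibroblasts. The genes were Bcl2, Bcl2l1 and Mcl1, whose products protect cells, the effectors Bax and Bak1, and the BH3-only genes Bcl2l11, Bmf, Bid, Bbc3 and Pmaip1. They were taken by gene symbol, and all 10 were found, each as 1 row, among the 43472 rows of the expression table. All 3 samples belonged to 1 condition: fibroblasts grown from tail tips of C57BL/6 mice were scratched to model a wound and received the soluble micrograft (MG, the cell-free extract of minced mouse skin) together with the MEK inhibitor PD0325901 (1 μM) for 5 h. The labels call the samples replicates 1, 2 and 3. The study looked for the transcriptional regulators that connect ERK to MG-induced migration of fibroblasts and human keratinocytes, and focused on the AP-1 transcription factors. MEK-inhibited fibroblasts were sequenced there as one part of that work, to see which MG-responsive genes the inhibitor affects. Cultures without MG, or with MG and no inhibitor, were not analysed here. No conditions were therefore compared, and no value below is an effect of the inhibitor or of MG.

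BCL2 family proteins decide whether the outer mitochondrial membrane stays intact. BAX and BAK, once active, open this membrane and release cytochrome c, which starts the caspase cascade. BCL-2, BCL-XL (from Bcl2l1) and MCL-1 hold them in check, and the BH3-only proteins BIM (from Bcl2l11), BMF, BID, PUMA (from Bbc3) and NOXA (from Pmaip1) sense stress and bind the guardians, and some of them the effectors. Among its known actions on this family in fibroblasts and other cells, ERK marks BIM protein for degradation and stabilises MCL-1 protein. Both of these act after the transcript is made, and they are not a full list. The counts below are of transcripts and say nothing of protein.

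The promoter windows of 4 members are shown, since the members of the first 3, Mcl1, Bid and Bax, were lowest in the same library, while Bcl2l11 is the BH3-only gene most often tied to ERK and had the smallest spread. Each window holds 250 bases before and 50 bases after a RefSeq transcript start in GRCm38.p6. Capitals mark matches, on either strand, to 5 motifs: AP-1 (TGANTCA), CRE (TGACGTCA), ETS (CCGGAAG), FOXO (TGTTTAC) and E-box (CACGTG).
Mcl1, chr3:95658471-95658770, plus strand, capitals an ETS match: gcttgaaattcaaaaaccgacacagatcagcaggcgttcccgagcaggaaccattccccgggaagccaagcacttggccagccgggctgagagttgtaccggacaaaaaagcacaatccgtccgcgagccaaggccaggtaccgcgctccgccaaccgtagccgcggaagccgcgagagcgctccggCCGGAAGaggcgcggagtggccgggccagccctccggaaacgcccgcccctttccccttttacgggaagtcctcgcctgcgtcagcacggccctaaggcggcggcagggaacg
Bid, chr6:120916775-120917074, minus strand, no match: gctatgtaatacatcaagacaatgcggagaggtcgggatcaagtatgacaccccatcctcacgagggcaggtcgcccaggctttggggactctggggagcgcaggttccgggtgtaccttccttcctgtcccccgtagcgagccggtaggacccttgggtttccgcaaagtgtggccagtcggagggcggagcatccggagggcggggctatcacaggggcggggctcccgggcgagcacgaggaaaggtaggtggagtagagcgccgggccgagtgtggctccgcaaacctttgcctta
Bax, chr7:45466849-45467148, minus strand, capitals E-box matches: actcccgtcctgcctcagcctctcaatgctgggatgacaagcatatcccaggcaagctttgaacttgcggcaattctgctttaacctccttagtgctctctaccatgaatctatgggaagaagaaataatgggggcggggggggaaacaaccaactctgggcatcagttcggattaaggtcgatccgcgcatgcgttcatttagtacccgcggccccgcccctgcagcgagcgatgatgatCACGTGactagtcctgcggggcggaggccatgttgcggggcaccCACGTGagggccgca
Bcl2l11, chr2:128125788-128126087, plus strand, capitals a FOXO and then an ETS match: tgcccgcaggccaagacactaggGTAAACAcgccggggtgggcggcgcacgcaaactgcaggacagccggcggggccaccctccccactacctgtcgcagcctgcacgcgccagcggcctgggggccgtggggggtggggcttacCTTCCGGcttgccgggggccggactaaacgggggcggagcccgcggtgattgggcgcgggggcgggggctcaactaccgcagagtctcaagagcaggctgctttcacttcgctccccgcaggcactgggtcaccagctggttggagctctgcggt
Windows were found for 9 members, 16 in all, and none for Pmaip1, which was not searched. Their GC content ran from 49.3% (a window of Bcl2l1) to 78.0% (a window of Bbc3), against 52.7% over all windows. Its part in the matches was not tested. The AP-1 and CRE motifs were in none of these 16, beside 7.81% and 1.79% of 32851 windows of all genes. At shares this low, 16 windows can easily hold no match, so this is not a result about the members. The ETS motif was in 1 window each of Bcl2l1, Mcl1 and Bcl2l11 (8.86% of all windows), the FOXO motif in 1 each of Bcl2l11 and Bbc3 (3.65%), and the E-box in 1 each of Bax and Bbc3 (7.15%). No match overlapped another. Bax carried its E-boxes 9 bases before and 35 bases after the start, counted to the first base of each match. A match is only a run of letters, and its absence says nothing of a factor acting elsewhere.

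The unit of the deposited table is the normalized count, a read count divided by the size factor of its library. Every value matched a whole number of reads, which could thus be recovered, from 17244505 to 27037783 reads on genes per library. A count of 0 allows up to 3 reads, which are 2.61, 2.11 and 3.56 normalized counts in replicates 1, 2 and 3. This limit and all counting intervals below cover counting error only, since the reads carried no molecular identifiers. Replicate 2 stood apart from the others: it lay more than 2-fold from both in 10.1% of 13154 genes, against 4.26% for replicate 1 and 3.58% for replicate 3. The fibroblast markers were present, with all 9 above 10 normalized counts in every library, although 3 of them (Dcn, Lum and Thy1) had replicate 2 apart in this sense. Of other cell types, Krt1 and Krt15 were at 0, Krt5, Krt14, Ptprc and Cdh5 had at most 2 reads in any library, and the summed marker levels differed between libraries. They were 1589, 327 and 1516 normalized counts for the keratinocyte list (2 of 6 detected, mostly Sfn), 142, 76.8 and 670 for leukocytes (1 of 6 detected, mostly Lyz2), 90.3, 244 and 55.7 for endothelial cells (1 of 5 detected, with Tek the bulk in replicate 2) and 214, 1208 and 83.0 for skeletal muscle (1 of 5 detected, mostly Des). Part of these sums moves with replicate 2, and their part in the results below was not tested. In such bulk samples, fewer cells of a type and less RNA per cell cannot be told apart.

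All 10 members were detected, meaning at least 10 normalized counts in each library. Means of at least 1000 normalized counts, a limit chosen after the values were seen, were reached by 5 genes: Bax, Mcl1, Bak1, Bcl2l1 and Bid. The 5 below it were Pmaip1, Bbc3, Bcl2, Bcl2l11 and Bmf. The limit marks no natural break: the step from Bid (1229) to Pmaip1 (637) was smaller in fold than that from Pmaip1 to Bbc3 (244). Levels of different genes are compared below as normalized counts per kb of exon, since longer transcripts collect more reads.

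**Figure D1:**
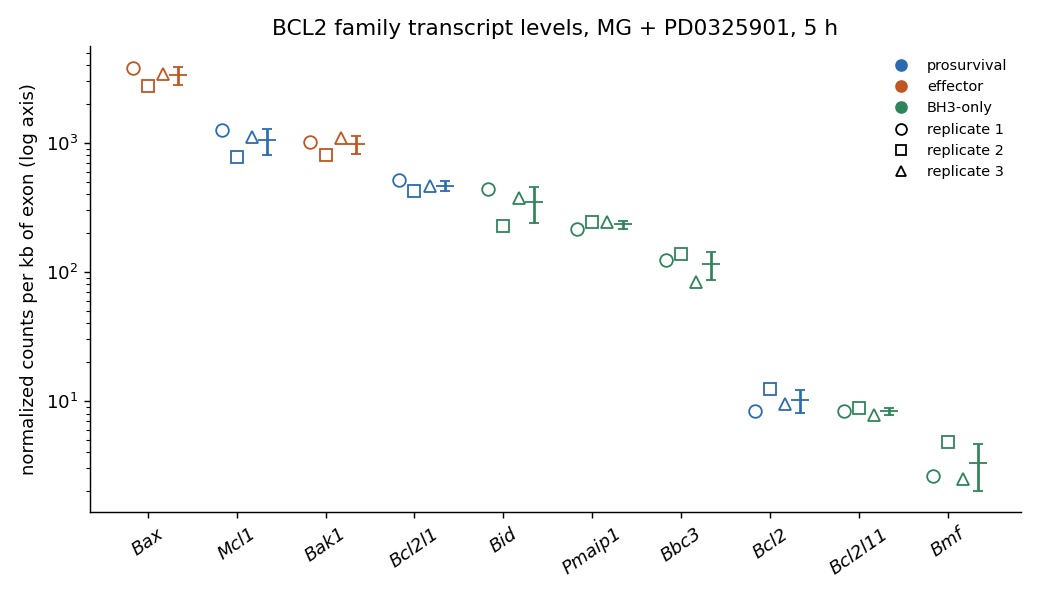
Transcript levels of the 10 members in normalized counts per kb of exon (log axis). Open symbols are the 3 libraries, the short bar with whiskers is their mean ± SD, and colours mark prosurvival, effector and BH3-only genes. Bax stands above all others with a mean of 3343, and Bcl2, Bcl2l11 and Bmf lie at 10.1 or less.

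The effector genes were both expressed well, with Bax the highest of the family. Bax (GRCm38 chromosome 7, minus strand, 45461697 to 45466898) gave 6007, 4378 and 5419 normalized counts in replicates 1 to 3, on average 5268 ± 825 (SD, n = 3). Replicate 2 was the lowest, and the highest library was 1.37-fold above it. Per kb, Bax had 3343 ± 524 normalized counts (SD, n = 3), above 97.7% of the 11642 detected genes with a known length. Bak1, whose product does the same work as BAX but sits in the membrane already in resting cells, lies on chromosome 17 from 27019810 to 27029009 on the minus strand. It gave 2463, 1946 and 2635 normalized counts, on average 2348 ± 358 (SD, n = 3). Replicate 2 was again the lowest, and replicates 1 and 3 differed by 1.07-fold. Within each library Bax exceeded Bak1 per kb, by 3.72-fold, 3.43-fold and 3.14-fold. This ratio moved little between libraries, with an SD of 0.12 on the log2 scale. Reads could be shared with neighbours: 192 exon bases of Bax overlap Gm45808 on the same strand, and Bak1 overlaps 2 entries named Ggnbp1 on the opposite strand by 177 and 437 bases. Whether reads were counted by strand is not given in the sources used here.

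Among the prosurvival genes, Mcl1 and Bcl2l1 were abundant and Bcl2 was scarce. Mcl1 (chromosome 3, 95658788 to 95663176, plus strand), which encodes a protein and an mRNA known for fast turnover, gave 4279, 2673 and 3767 normalized counts in replicates 1 to 3. They averaged 3573 ± 821 (SD, n = 3), with replicate 2 the lowest at 1.41-fold below the nearer of the others. Bcl2l1, the gene of BCL-XL (chromosome 2, 152780668 to 152831728, minus strand), gave 2351, 1945 and 2125 normalized counts, on average 2140 ± 204 (SD, n = 3). Its libraries lay close together, within 1.21-fold. Bcl2, the founding member (chromosome 1, 106538178 to 106714274, minus strand), had 77.3, 114 and 86.5 normalized counts, from 89, 162 and 73 reads. Replicate 2 was the highest here, and counting error alone was 11.7% in the library with the fewest reads. The 558 exon bases that Bcl2 shares with the antisense gene D630008O14Rik could add or remove reads.

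Per kb of all exons, Mcl1 made up most of the summed level of the 3 prosurvival members, and Bcl2 about 1% or less. Mcl1 held 70.6%, 64.2% and 70.0% of the summed level of these 3 genes in replicates 1, 2 and 3, Bcl2l1 held 28.9%, 34.8% and 29.4%, and Bcl2 held 0.476%, 1.02% and 0.600%. Bcl2l2, a further prosurvival gene outside the members, is not in this sum and had 465, 459 and 507 normalized counts per kb. The log2 ratio of Mcl1 to Bcl2l1 was 1.29, 0.88 and 1.25, positive in all 3 libraries. Both this ratio and the shares depend on the gene length used. With the longest transcript in place of all exons, Bcl2l1 is shorter and the ratio fell to 0.45, 0.05 and 0.41. This leaves Mcl1 and Bcl2l1 about level in replicate 2. With a pseudocount of 1 added to each count, Bcl2l1 exceeded Bcl2 by 60.0-fold, 33.7-fold and 48.5-fold, and Bax exceeded Bcl2 by 446-fold, 221-fold and 360-fold. Both ratios were smallest in replicate 2, and neither came near 1 in any library or with the other length.

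The BH3-only genes ranged from well expressed to the edge of detection. Bid, which links death receptors to mitochondria once caspase-8 has cut its product, lies on chromosome 6 from 120891930 to 120916853 on the minus strand. It gave 1549, 802 and 1336 normalized counts in replicates 1 to 3, on average 1229 ± 385 (SD, n = 3). Replicate 2 was 1.67-fold below the nearer of the others, and the 1.93-fold range was the widest among members with a mean of at least 100. Bid shares 628 exon bases with Bcl2l13 on the opposite strand. Pmaip1, the gene of NOXA, which binds MCL-1 above all, gave 584, 665 and 664 normalized counts, on average 637 ± 46.7 (SD, n = 3). Replicates 2 and 3 were level and replicate 1 was 1.14-fold lower. Bbc3, the gene of PUMA and a classical p53 target, lies on chromosome 7 from 16308393 to 16318205 on the plus strand. It gave 261, 292 and 178 normalized counts, on average 244 ± 59.0 (SD, n = 3), and replicate 3 stood 1.47-fold below the nearer of the others.

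Bcl2l11 and Bmf, whose products are both held on the cytoskeleton in healthy cells, were the lowest members per kb, just under Bcl2. Bcl2l11, the gene of BIM (chromosome 2, 128126038 to 128162547, plus strand), gave 67.7, 71.2 and 62.8 normalized counts, on average 67.2 ± 4.19 (SD, n = 3). These rested on 78, 101 and 53 reads, so that counting error of up to 13.7% exceeded the 6.24% spread between replicates. Per kb of its long exons, 8.03 kb in all, Bcl2l11 had 8.37 ± 0.52 normalized counts (SD, n = 3), above only 5.78% of detected genes. Bmf (chromosome 2, 118528757 to 118549687, minus strand) had 13.9, 25.4 and 13.04 normalized counts from 16, 36 and 11 reads. Replicate 2 was 1.83-fold above the nearer of the others, with a 95% counting interval of 0.988 to 3.52 for its ratio to replicate 1, so a difference was not detectable at this depth. The known splice forms of Bcl2l11 (8 annotated transcripts), Bcl2l1 (9) and Mcl1 (2), some of them with opposite function, are summed in these counts.

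In every library Bax led the members per kb and Mcl1 and Bak1 came next, followed by Bcl2l1, then Bid and Pmaip1, then Bbc3, Bcl2, Bcl2l11 and Bmf in that order. Of the 45 pairs of members, 43 kept their order in all 3 libraries. The exceptions were Mcl1 and Bak1, with means of 1045 ± 240 and 975 ± 149 normalized counts per kb (SD, n = 3), and Bid and Pmaip1, with 346 ± 108 and 233 ± 17.1. In both pairs the order was turned in replicate 2, and the log2 ratio within a library, 0.08 ± 0.18 and 0.52 ± 0.58 (SD, n = 3), was within its own spread. Bcl2 and Bcl2l11 were not separated either, with a log2 ratio of 0.25 ± 0.25 (SD, n = 3) that was 0.00 in replicate 1. For the other neighbours in the order the ratio exceeded its SD, from 0.48 ± 0.37 for Bcl2l1 over Bid to 3.49 ± 0.36 for Bbc3 over Bcl2. With 3 libraries an exact permutation test of these ratios cannot go below p = 0.25 (two-sided), so none could pass 0.05.

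**Figure D2:**
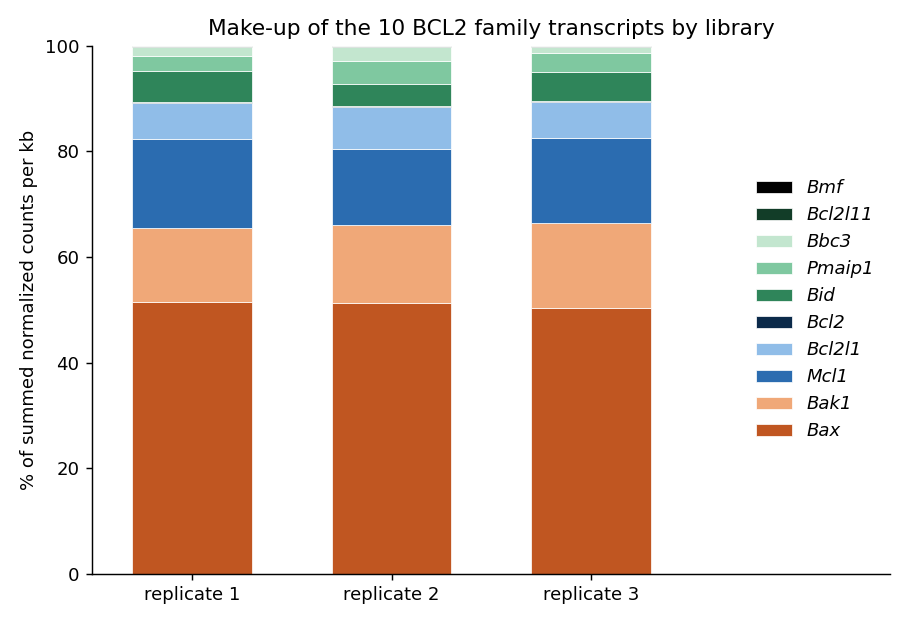
Share of each member in the summed normalized counts per kb of the 10 genes, in each library. Bars are stacked from 0 to 100%, with orange for effectors, blue for prosurvival and green for BH3-only genes, and Bcl2, Bcl2l11 and Bmf are too thin to see. Effectors hold between 65.4% and 66.5% in the 3 libraries.

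Taken as classes, the members held nearly the same shares of the summed level per kb of these 10 genes in each library. Other family genes are not in this sum. Among them, effector-like Bok averaged 1019 normalized counts per kb, prosurvival Bcl2l2 477 and BH3-only Bad 282. The shares therefore depend on the choice of genes. Effectors held 65.4%, 66.1% and 66.5% in replicates 1, 2 and 3, prosurvival genes 24.0%, 22.5% and 23.1%, and BH3-only genes 10.6%, 11.4% and 10.5%. Bax alone was 51.6%, 51.2% and 50.4% of the sum, so these shares largely follow Bax and Mcl1. Among the BH3-only members the make-up did change. Bid was 55.7% and 52.8% of their sum in replicates 1 and 3 but 36.4% in replicate 2, where Pmaip1 was the largest at 39.2% and Bbc3 held 22.1%. Bad, which is left out of their sum, had 298, 222 and 328 normalized counts per kb in replicates 1, 2 and 3. Pmaip1 had 214, 243 and 243. Bcl2l11 stayed between 1.08% and 1.43% of the sum of the BH3-only members, and Bmf between 0.337% and 0.778%.

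**Figure D3:**
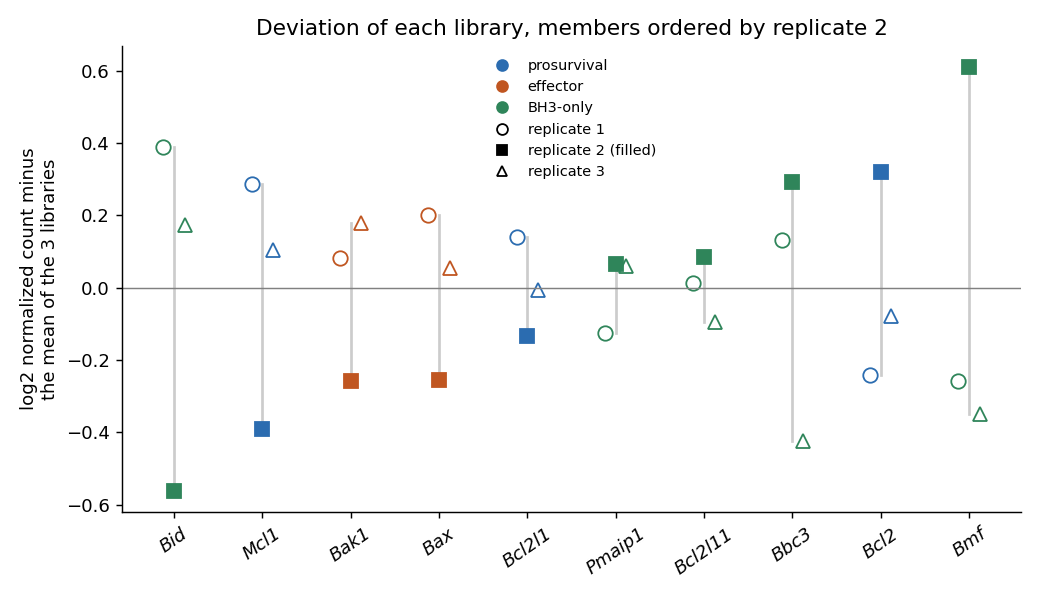
Log2 normalized count of each library minus the mean of the 3 libraries, members ordered by replicate 2 (filled squares). Replicate 2 is the lowest library for the 5 members on the left and the highest for the 5 on the right, by a margin of 1.00-fold for Pmaip1.

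Replicate 2 was at an end of the range for each of the 10 members. It was the lowest library for Bcl2l1, Mcl1, Bax, Bak1 and Bid, which are the 5 members with means of at least 1000 normalized counts, and the highest for Bcl2, Bcl2l11, Bmf, Bbc3 and Pmaip1. Over all 12204 detected genes, replicate 2 was the lowest library for 37.3% and the highest for 40.6%, so an end position is the usual one for this library. Level was only weakly related to the side in the transcriptome at large: of the 3786 genes that averaged 1000 or more, 40.5% were lowest and 37.4% highest in replicate 2, and of the other 8418 genes 35.8% and 42.0%. The limit of 1000 was chosen after the values were seen. The position of Pmaip1 rested on a 1.00-fold margin over replicate 3 and was lost under TMM scaling, which left 4 members highest and 5 lowest. That of Bcl2l11 rested on 1.05-fold, less than its counting error.

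The libraries were next compared in pairs, to see which members differed beyond counting error. A two-sided exact binomial test on recovered reads was run for every gene with at least 10 reads in the pair and adjusted by Benjamini-Hochberg over all of them. It compares libraries, not conditions, and does not cover the variation between cultures. Between replicates 1 and 2, 7 of 10 members were called, against 69.1% of 14771 genes tested. Between replicates 2 and 3, 6 of 10 were called, against 62.6% of 14344 genes, and between replicates 1 and 3, 7 of 10, against 52.0% of 14316 genes. The members' counts were close to the share of all genes in the first pairs and somewhat above it in the last. Bcl2l1, Mcl1, Bax, Bak1 and Bid were called in each pair (5 of 10, against 30.0% of the 13717 genes tested in all 3 pairs), and Bcl2l11 and Bmf were called in no pair (2 of 10, against 16.4%). The members called in each pair are also the 5 with the most reads.

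**Figure D4:**
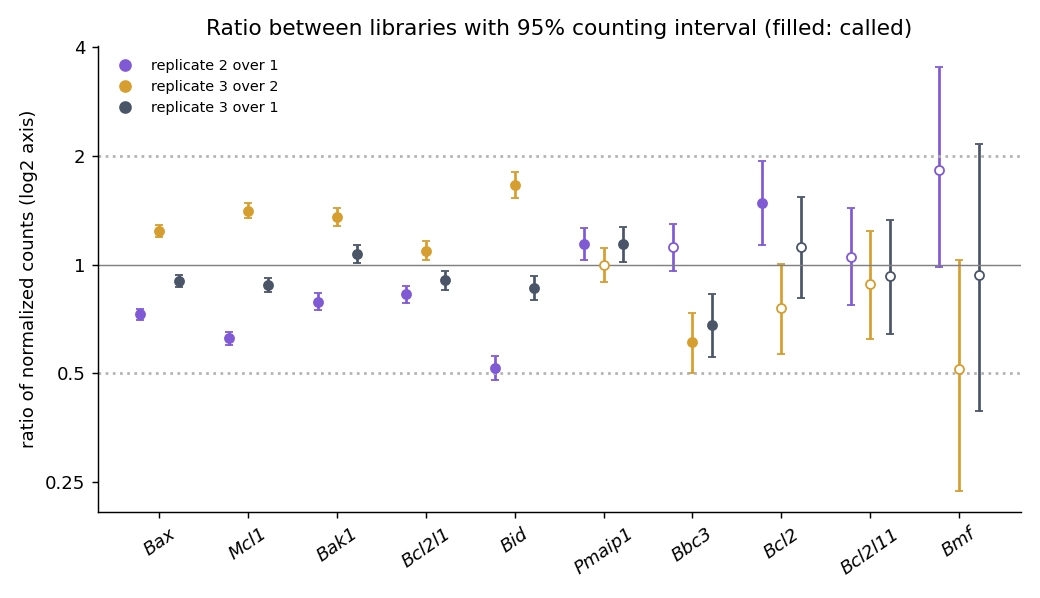
Ratio of normalized counts between libraries for each member (log2 axis), with 95% exact counting intervals. Filled points passed the exact binomial test at an adjusted p under 0.05, and dotted lines mark 2-fold. No point lies past 2-fold, and the intervals widen from Bax to Bmf.

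Bid had the largest difference among the calls. Bid in replicate 2 was at 0.518 of replicate 1 (95% counting interval 0.480 to 0.558, exact binomial test, adjusted p = 1.94e-68), and replicate 3 was 1.67 times replicate 2 (1.53 to 1.81). Mcl1 in replicate 2 was at 0.625 of replicate 1 (0.599 to 0.652, exact binomial test, adjusted p = 3.42e-105). For Bbc3, replicate 3 was at 0.609 of replicate 2 (0.502 to 0.736, exact binomial test, adjusted p = 2.91e-07), while replicates 1 and 2 had a ratio of 1.12 (0.960 to 1.30). Bcl2 was higher in replicate 2 than in replicate 1 by 1.48-fold (1.13 to 1.94, exact binomial test, adjusted p = 0.00483). For Bcl2l11 the intervals of all 3 pairs included 1, and the ratio of replicate 2 to replicate 1 was 1.05 (0.774 to 1.43, exact binomial test, adjusted p = 0.809). The calls nearest to the threshold depended on the scaling: with expected shares from library totals, Bak1 and Pmaip1 were no longer called between replicates 1 and 3 (adjusted p = 0.495 and 0.205 by the exact binomial test). Under the same setting Bcl2l1 was no longer called between replicates 2 and 3 (adjusted p = 0.618, exact binomial test), which leaves it and Bak1 called in fewer than 3 pairs, and Bcl2 became called there (adjusted p = 0.0225, exact binomial test).

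No member had a library more than 2-fold from both others, against 15.8% of 13154 genes with a mean of at least 10. At a limit of 1.5-fold, Bid and Bmf were apart, both in replicate 2, against 35.8% of genes. Between replicates, log2(normalized count + 1) had a median SD of 0.26 over the 10 members and 0.30 over the 12204 detected genes. It ranged from 0.09 for Bcl2l11, 0.11 for Pmaip1 and 0.14 for Bcl2l1 to 0.50 for Bid and for Bmf. Without replicate 2 it was 0.11 for the members and 0.20 for all detected genes. The biological coefficient of variation that edgeR estimated from recovered reads lay between 21.9% (Bcl2l1) and 38.1% (Bmf) for the members, with a common value of 31.8% over all detected genes. For Bcl2l11 it was 34.2%, higher than its observed spread, since edgeR draws each gene towards the trend of genes with like counts. The same held for members with more reads, such as Pmaip1 (23.9% against an observed 7.33%) and Bcl2l1 (21.9% against 9.52%).

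**Figure D5:**
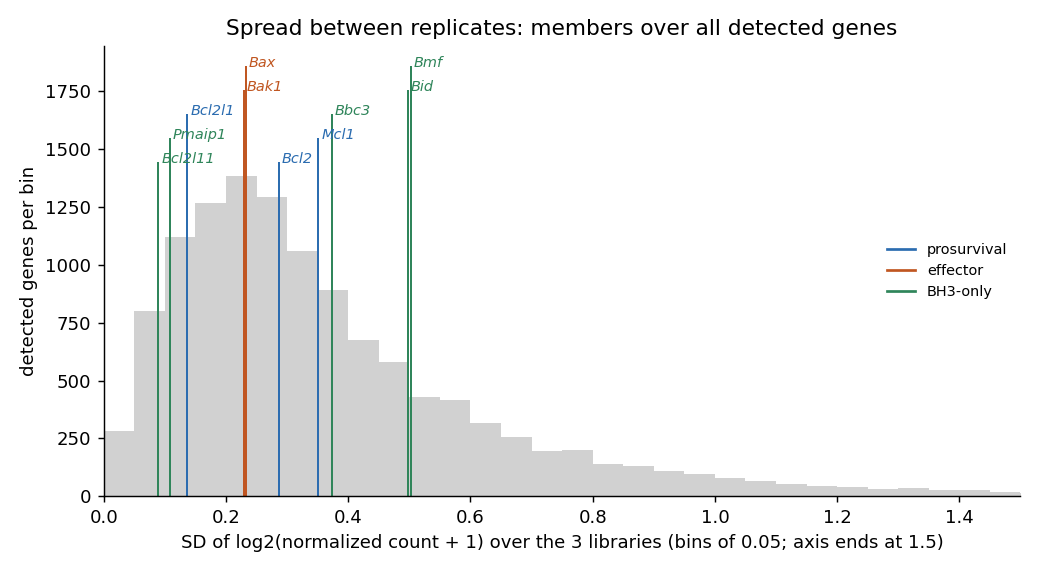
Distribution of the SD of log2(normalized count + 1) over the 3 libraries for all 12204 detected genes (grey bars, bins of 0.05) with the 10 members as coloured lines. Members spread over the distribution from 0.09 (Bcl2l11) to 0.50 (Bid and Bmf), and the axis ends at 1.5.

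Some pairs of members kept a steadier ratio than others. Across the 45 pairs, the SD of the within-library log2 ratio ran from 0.10 to 1.02 with a median of 0.37. The steadiest were Bcl2l1 with Bax (0.10), Mcl1 with Bax (0.12) and Bax with Bak1 (0.12), and Mcl1 with Bid had 0.15. The least steady was Bmf with Bid (1.02), followed by Mcl1 with Bmf (0.87), where the few reads of Bmf add to the spread. Bcl2l11 against Mcl1, a BH3-only gene and the guardian its product binds, had a per kb ratio of 0.00684, 0.0115 and 0.00721 in replicates 1, 2 and 3. Bbc3 against Pmaip1 had 0.577, 0.565 and 0.346, lowest in replicate 3. These points share 3 libraries, so they describe these cultures only.

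Among the 9991 other genes with a mean of at least 100, those closest to Bid over the 3 libraries, by the Euclidean distance of log2 values centred on their mean, were Fstl3 (0.00393), Erp29 (0.00878) and Taf12 (0.00940). With 3 libraries such closeness is common, and 107 genes lay within 0.1 of Bid.

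Of the other BCL2 family genes, 7 of 15 were detected. Bnip3, a mitophagy receptor with a BH3-like part, had the highest mean with 3607 ± 311 normalized counts (SD, n = 3). Bcl2l2, which encodes the guardian BCL-W, had 2076, 2046 and 2262 normalized counts, steady between libraries. Per kb it was level with Bcl2l1, with a log2 ratio of 0.03 ± 0.15 (SD, n = 3). Bok, an effector-like gene chosen after its values were seen, had 1550, 1983 and 2094 normalized counts, with replicate 1 the lowest, and per kb it was level with Bak1 (log2 ratio 0.06 ± 0.35, SD, n = 3). Bad, a BH3-only gene whose product growth factor signals switch off, had 762, 567 and 838 normalized counts. Bcl2l15 had 21.7, 2.82 and 20.1, with replicate 2 the only library apart. Hrk, Bcl2a1a and Bcl2a1b had 0 reads in every library, and the Bcl2a1 genes are near-identical copies whose reads a count of unique alignments can lose. Of these 7 detected genes, replicate 2 was the lowest library for 2 and the highest for 1, and their median SD of log2 was 0.19.

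Downstream of the family, all 11 genes of the apoptosome and caspase list were detected. Replicate 2 was the lowest library for 5 of them and the highest for 6. Cycs, the gene of cytochrome c, had 1338, 896 and 1035 normalized counts, and Htra2, a protease released with it, had 1216, 1106 and 1121. Replicate 2 was the lowest library for both.

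Upstream, 7 of 8 genes of the p53, FOXO and stress list were detected, and replicate 2 was the lowest library for 5 of them. Cdkn1a, a p53 target that stops the cell cycle, had 21154, 16145 and 20674 normalized counts, and Atf4, the factor of the integrated stress response, had 11097, 7302 and 9330. Foxo1, a factor known to activate Bcl2l11, had 822, 228 and 729 normalized counts, with replicate 2 apart. Foxo3, the other FOXO gene of the list, had 1173, 1099 and 1029, with no library apart. Bcl2l11 itself varied by 1.13-fold, and its relation to either gene was not tested. Ddit3, the gene of CHOP, had 1346, 845 and 1066. On the death receptor side, all 7 genes were detected. Tnfrsf1a had 3918, 4493 and 4343 normalized counts and Tnfrsf10b, the mouse TRAIL receptor, 2894, 2372 and 3448. Fas had 1941, 1280 and 2231, lowest in replicate 2 as Bid was, and Ripk1 had 285, 490 and 577, lowest in replicate 1.

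Of the genes acting on MCL-1 or BIM protein, all 4 were detected, and the 2 most abundant were highest in replicate 2. Huwe1, a ubiquitin ligase for MCL-1, had 2762, 4706 and 3862 normalized counts, and Usp9x, which removes ubiquitin from MCL-1, had 2697, 4049 and 2270. No gene of this list was apart. The 7 MEK-ERK feedback genes were all detected, with sums of 1339, 1355 and 1387 normalized counts. Spry2 had 228, 392 and 375 and Etv4 had 284, 334 and 142, while Dusp4 had 46.0, 101 and 21.3 and Egr1 57.3, 16.2 and 30.8. Their median SD of log2 was 0.65, more than the 0.26 of the BCL2 family members, and Dusp4 (replicates 2 and 3) and Spry4 (replicate 3) had libraries apart. The feedback genes averaged from 34.8 (Egr1) to 331 (Spry2) normalized counts, while 5 members averaged at least 1000. The sets were not matched for level, so these SDs are not directly comparable. No level without PD0325901 was analysed here, so these values do not measure how far the pathway was blocked.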

How the data were processed

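Stranded mRNA libraries of 3 samples of 1 condition were sequenced by the authors as 50 bp single-end reads. Per the methods and the submitters' processing notes, reads were aligned to mm10 with TopHat2 2.0.13, allowing 2 mismatches and keeping uniquely placed reads whose alignment score reached 10, and counted per gene with HTSeq 0.5.3p3. The gene annotation and strand setting are not given in the sources used here. The deposited signal consists of normalized counts, which the authors made by dividing read counts by 1 size factor per library (DESeq). All values (100%) were within 0.1 read of a whole multiple of 1 read, so reads were recovered by division, with size factors of 1.15, 1.42 and 0.844. The table also holds 3 columns that match no sample of the labels, and these were left out. The table had no rows without a name, 27 names turned into dates (0.231% of reads) and 2 repeated names, none a member.

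Means and SDs were taken on normalized counts, and log2 values used a pseudocount of 1. A gene was detected at 10 normalized counts in every library, and a library was apart when more than 2-fold from both others at a mean of at least 10. Lengths are the union of exons in GENCODE M21 (GRCm38, the build of mm10). Pairs of libraries were compared by exact binomial tests with Benjamini-Hochberg adjustment at 0.05. TMM factors and dispersions came from edgeR 4.0.16 (R 4.3.3) with an intercept-only design. Python 3.11.15, numpy 2.4.6, scipy 1.17.1 and pandas 2.3.3 were used for the rest. Steps were tested on simulated data. In the simulated comparison of replicates 1 and 2, 200 of 200 genes changed 4-fold were called, with 11 false calls among 14769 genes. These simulated counts varied by counting error alone. They checked that the step runs correctly and say nothing of false calls between real cultures or of smaller changes.

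The genes named were all members, and of each list the 2 with the highest mean, the 2 with the widest range and those at 0 reads. Further genes were named where a result turned on them. Some genes under this rule are not reported here. Members, lists and the rule were chosen with earlier results of these data known. Alternatives were other pseudocounts, minimums, fold limits, scalings and gene lengths, and each replicate left out. Nothing in the labels beyond the word replicate says how the cultures were kept apart, so spreads may in part be technical. No protein sequences were used here.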

Additional observations from a re-analysis of the deposited data

How the results depend on the processing

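No paired analysis was possible because the libraries form a single group. With the longest transcript in place of all exons, the log2 ratio per kb became 0.30 for Mcl1 to Bcl2l1, 6.02 for Bcl2l1 to Bcl2, 2.28 for Bax to Bak1 and -6.24 for Bcl2l11 to Mcl1, prosurvival genes held 22.1% and effectors 67.5% of the summed level, and Bcl2 and Bcl2l11 changed places in the order, which follows from the lengths. The mean log2 ratio of Bcl2 to Bcl2l11 went from 0.25 to -0.07, and the means of the other neighbours in the order kept their sign. That of Bak1 to Bcl2l1 fell from 1.06 to 0.23. Mcl1 then exceeded Bak1 in 1 library instead of 2, while Bid exceeded Pmaip1 in 3 instead of 2. Without replicate 1, Mcl1 and Bak1 changed places. With more than 2-fold required as well, 0 members were called in each pair by the exact binomial test, and 2996, 2358 and 1327 genes in all between replicates 1 and 2, 2 and 3, and 1 and 3. At 1.5-fold, 2 members and 4712 genes had a library apart, without a minimum 6256 genes and with a mean of at least 100 860 genes. The median SD over all genes with reads was 0.46. With each replicate left out it was 0.11 to 0.29 for the members and 0.20 to 0.30 for detected genes, lowest without replicate 2. Of 205 recomputed values, 24 moved in all. Another scaling or a replicate left out moved no member's mean by more than its SD, which for leaving out a replicate says nothing of stability. Depth limited Bmf, Bcl2l11 and Bcl2 most.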
